A study of Mus musculus with 6 samples.

Results

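Laminins and integrins form a matrix protein family and its cell surface receptors. The genes described here are those whose symbol in the deposited annotation is Lam followed by a, b or c and a number, Itga followed by its suffix, or Itgb followed by a number. This rule, which used no measured value, gave 37 of the 35974 gene names, of which 11 encode laminin chains, 18 integrin alpha subunits and 8 integrin beta subunits. They carried 119 of the 114412 transcripts, and 92 of these had at least 1 count.

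The RNA came from ovaries of C57BL/6J (labelled C57Bl6j) embryos collected at E15.5. The mothers were given panobinostat (PB), an inhibitor of histone deacetylases, at 5 mg/kg by gavage from E6.5 to E15.5, or the same volume of DMSO and water. Dosing was on alternate days according to the methods, whereas the labels give a daily dose. There were 3 control pools and 3 PB pools, and a pool is given as 4 ovaries in one protocol, 6 to 8 in the design text and no fewer than 8 in the methods. PB was given to the whole animal, and each pool mixes germ cells, somatic cells and vessels. A change in such pools cannot tell fewer cells of a type from less RNA per cell.

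A laminin is a cross-shaped trimer of an alpha, a beta and a gamma chain that assembles with type IV collagen, nidogen and perlecan into basement membranes. An integrin is a pair of an alpha and a beta subunit that spans the cell membrane, binds laminin, fibronectin, collagen or another cell outside, and links to actin through talin and kindlin inside. In the fetal ovary, basement membranes lie under the surface epithelium, around the ovigerous cords of germ cells and pregranulosa cells, and around vessels.

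The integrin alpha 6 subunit, a laminin receptor, had the highest per-length level of the alpha subunits, and its counts were split between transcripts with different cytoplasmic tails. The coding ends of both transcripts are shown because this division is the clearest isoform feature of the family in these ovaries. The first 60 bases of each are shared (chr2:71849447-71849506, mm10, plus strand, coding exon), and the capitals mark the coding bases that belong to 1 transcript, stop codon included.
Itga6 NM_008397.4: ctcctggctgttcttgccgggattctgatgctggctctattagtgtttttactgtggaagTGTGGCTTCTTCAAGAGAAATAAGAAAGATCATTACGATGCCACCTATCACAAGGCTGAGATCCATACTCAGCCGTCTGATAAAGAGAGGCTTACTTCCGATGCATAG
Itga6 NM_001277970.1: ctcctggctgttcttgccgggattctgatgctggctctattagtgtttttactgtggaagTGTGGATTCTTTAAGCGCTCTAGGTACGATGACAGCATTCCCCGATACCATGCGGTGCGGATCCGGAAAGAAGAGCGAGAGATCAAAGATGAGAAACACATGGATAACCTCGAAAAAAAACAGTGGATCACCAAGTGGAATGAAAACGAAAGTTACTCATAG
The capitals of NM_008397.4 span chr2:71853534-71853641, inside an exon of 130 bases that NM_001277970.1 skips, and encode 35 residues. Those of NM_001277970.1 span chr2:71855854-71856015 and encode 53 residues. These forms are known as alpha 6A and alpha 6B.

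Other members were divided among transcripts by a single short exon or by exons that replace each other. Integrin alpha 7, a laminin receptor of muscle, has alternative coding exons in its extracellular part, shown here because the pools differed in which of them was counted. The first lies at chr10:128941445-128941576 and the second at chr10:128941822-128941941, on the plus strand.
Itga7 132-base exon: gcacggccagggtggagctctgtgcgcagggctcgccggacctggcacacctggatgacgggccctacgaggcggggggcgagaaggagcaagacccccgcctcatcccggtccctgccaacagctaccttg
Itga7 120-base exon: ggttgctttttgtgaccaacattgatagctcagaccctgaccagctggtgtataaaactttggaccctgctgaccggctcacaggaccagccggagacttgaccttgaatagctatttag
In Lama2, the laminin alpha 2 chain of muscle, the transcripts XM_011243134.1 and XM_017313815.1 differ by 12 coding bases at chr10:27021461-27021472 on the minus strand, shown in capitals between 30 bases of the coding exons on each side.
Lama2 12-base exon: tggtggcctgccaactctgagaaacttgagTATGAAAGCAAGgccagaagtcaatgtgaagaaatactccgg
All of these sequences are those of the GENCODE vM21 transcripts on GRCm38.

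The pools held 97165644 to 125985399 counts each, and the members took up 0.280% to 0.311% of the counts of named genes. Pregranulosa markers were well detected (605 to 697 CPM summed over 5 genes, where CPM are counts scaled to library size), as the ovary label would have it. Germ cell markers summed to 555 and 472 CPM in control 2 and PB 2 and to 732 to 864 CPM in the other 4 pools. Cdh16, a marker of mesonephric epithelium, reached 14.8 CPM in control 3 and stood at 1.90 to 3.88 CPM in the others. A count of 0 allows up to 3 counts, or 0.0248 to 0.0321 CPM, and covers counting error only.

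Levels are given first as TPM, which divide the counts by transcript length as well as by library size and so allow genes to be set against each other. Among the laminins, Lamb1 (beta 1 chain) stood at 88.4 ± 5.39 TPM (SD over the 6 pools) and Lamc1 (gamma 1 chain) at 69.5 ± 5.01 TPM. Lamb2 (beta 2 chain) followed at 42.3 ± 5.23 TPM. The ranges of these 3 genes did not overlap. The most abundant alpha chain was Lama1 (28.7 ± 2.19 TPM), above Lama4, a chain of vessel walls (19.4 ± 1.66 TPM), and Lama5 (7.33 ± 0.694 TPM). Lamc3 (4.17 ± 0.590 TPM) and Lama2 (3.89 ± 0.464 TPM) overlapped in range, and Lama3 (2.49 ± 0.185 TPM) lay below both. The Lamc3 value includes a downstream single exon of 1158 bases with 87 to 178 counts a pool, which weighs more in TPM than in counts. The order of Lamc3 without that exon was not computed. Lamb3, a beta chain of epidermal laminin, was lowest at 0.375 ± 0.110 TPM.

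The chains had similar proportions in all pools. Lama1 made up 44.6% to 48.8% of the summed alpha chain TPM of a pool and Lama4 28.9% to 33.3%. Lamb1 made up 64.3% to 70.1% of the beta chains. Lamc1 made up 89.2% to 92.4% of the gamma chains. The ratio of summed beta to summed gamma chains was 1.71 ± 0.0477 in control and 1.72 ± 0.0555 in PB (SD, n = 3 pools each, exact permutation test, two-sided p = 0.9, where 0.1 is the smallest p that 3 against 3 can give). The control and PB ranges overlapped.

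Among the alpha subunits Itga6 stood at 145 ± 9.02 TPM, above Itga9, a tenascin receptor (34.1 ± 1.70 TPM), and Itga5, the fibronectin receptor subunit (25.1 ± 1.68 TPM). The Itga9 value includes a 492-base transcript on the opposite strand within an intron, with 271 to 418 counts a pool. Being short, that transcript weighs more in TPM than in counts. The order of Itga9 and Itga5 without it was not computed. Itga5, Itgav and Itga3 overlapped in range and were not separable in order. Itga6 made up 48.3% to 51.0% of the summed alpha subunit TPM of a pool. Among the beta subunits Itgb1, the partner of most alpha subunits, stood at 162 ± 7.35 TPM and Itgb5, a partner of alpha V, at 86.6 ± 4.82 TPM. These made up 61.9% to 64.3% and 32.3% to 34.4% of the summed beta subunit TPM. The third, Itgb3, was at 3.03 ± 0.836 TPM and overlapped with Itgb8 (2.82 ± 0.427 TPM). Leukocyte subunits were low, with Itgb2 at 1.299 ± 0.336 TPM and Itgam at 0.877 ± 0.270 TPM.

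**Figure D1:**
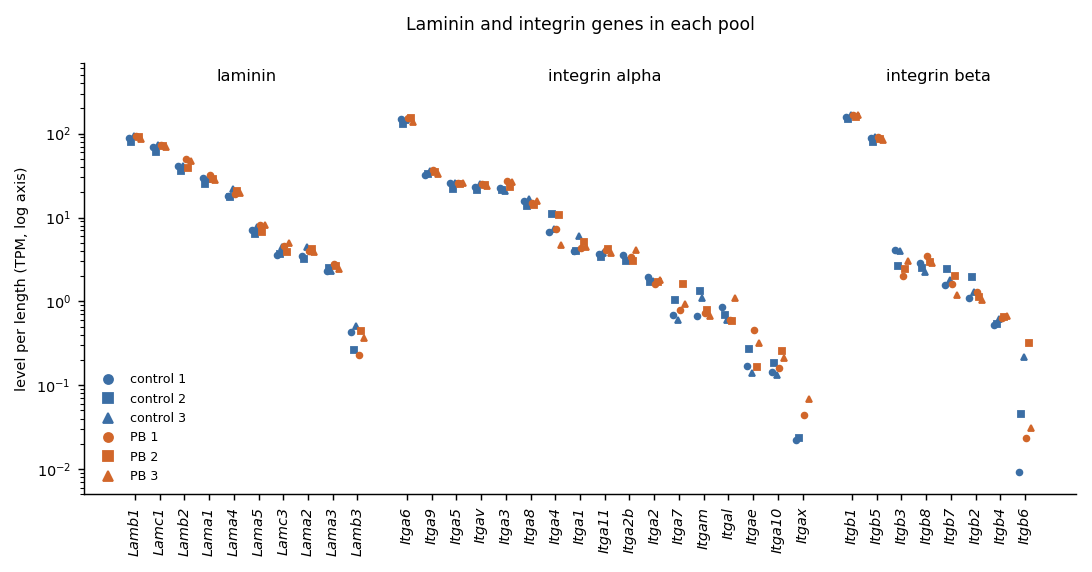
Per-length levels (TPM, log axis) of the laminin, integrin alpha and integrin beta genes, with a point for each of the 3 control pools (blue) and 3 PB pools (orange). Values of 0 cannot be drawn on this axis, so Itgad and the pools of Itgax at 0 are missing, and 1 laminin gene is not drawn. Itga6, Itgb1, Itgb5, Lamb1 and Lamc1 lie above the other members in each pool, and blue and orange points lie close together for the abundant genes.

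Panobinostat was compared with control by edgeR's quasi-likelihood test on the counts summed per gene, where a call needed a change of 2-fold or more and an FDR (Benjamini-Hochberg) no higher than 0.05. None of the 35 members that passed the filter on low counts was called, with a smallest FDR of 0.888, beside 3 of all 19435 genes (0.0154%). By DESeq2 0 of 36 members with a p-value were called (0.0414% of all genes). Of the members removed by the filter, Itgad, a leukocyte subunit, had 0 counts in all 6 pools, and Itgax, the dendritic cell subunit, had 6, 8 and 0 counts in control, against 11, 0 and 18 counts in PB.

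At an unadjusted p under 0.05, edgeR gave 3 members lower in PB (background 2.43% of all genes) and 0 higher (background 2.03%). DESeq2 gave 4 members under 0.05, the same 3 and Itgam (background 3.65% in either direction). Of the tested members, 22 had a negative and 13 a positive log2 fold change, whereas 49.3% of all genes were negative. The median log2 fold change was -0.03 over the members and 0.00 over all genes tested, and the median size of a change was 0.12 over the members and 0.10 over all genes. For 25 of the 35 members the 95% interval of the fold change lay within 2-fold in both directions, as it did for 76.5% of all genes.

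The laminins had small differences, with a median size on the log2 scale of 0.02, against 0.18 for the alpha and 0.28 for the beta subunits of the integrins. The laminins were also measured more precisely, with a median SE of 0.0877, against 0.125 and 0.165. The classes were not tested against each other. Of the 11 chains, 6 had a negative and 5 a positive change, none had p under 0.05 in edgeR, and the log2 fold changes ran from -0.31 to 0.08. In Lamb1 the control pools held 345, 333 and 351 CPM and the PB pools 335, 350 and 308 CPM. The pools overlapped, and the log2 fold change was -0.05 (SE 0.0583, edgeR FDR 0.897). In Lamc1 the control pools held 355, 333 and 366 CPM and the PB pools 346, 366 and 328 CPM, again overlapping (log2 fold change -0.02, SE 0.0598, edgeR FDR 0.958). In Lamb2 the control pools held 157, 148 and 151 CPM and the PB pools 173, 144 and 165 CPM. PB 1 and PB 3 lay above all control pools and PB 2 below them (log2 fold change 0.08, SE 0.0743, edgeR FDR 0.888). The 95% interval lay within 2-fold for 10 of the 11 chains, the exception being Lamb3, with an interval of -1.11 to 0.50 on the log2 scale.

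The abundant laminin receptors also differed little. Itga6 had 581, 559 and 550 CPM in control and 561, 592 and 503 CPM in PB, with overlapping pools (log2 fold change -0.03, SE 0.0688, edgeR FDR 0.946). Itga3, which pairs with beta 1 to bind laminin, had 74.6, 74.6 and 65.0 CPM in control and 81.9, 74.8 and 80.4 CPM in PB. Its PB pools lay above its control pools by a narrow margin in PB 2 (log2 fold change 0.15, SE 0.0720, edgeR FDR 0.888). With DESeq2's size factors the groups overlapped. The Itga3 sum includes an assembled transcript with 0, 1707 and 0 counts in control and 1303, 305 and 656 counts in PB. With known transcripts only, the log2 fold change was 0.11 (edgeR FDR 0.917). The main transcript, NM_013565.3, overlapped, with 70.9, 56.2 and 62.0 CPM in control and 63.3, 66.2 and 70.5 CPM in PB. Itgb1 had 453, 457 and 460 CPM in control and 437, 439 and 435 CPM in PB. Its groups did not overlap, but the difference was small, with a log2 fold change of -0.06 (SE 0.0379, edgeR FDR 0.888) and a 95% interval of -0.15 to 0.03.

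**Figure D2:**
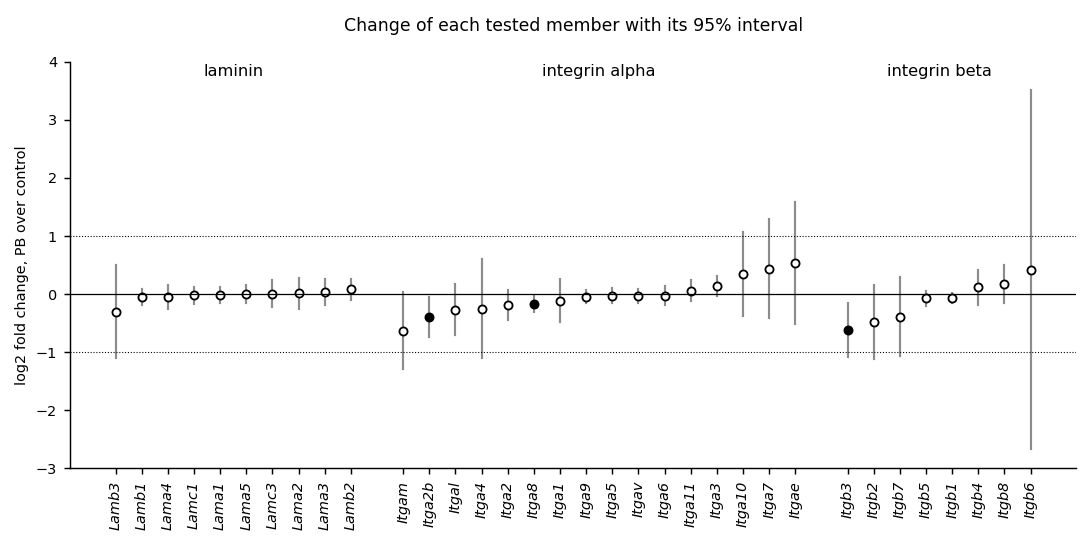
Log2 fold change of PB over control (points) with its 95% interval (lines) from edgeR for the tested members, of which 1 laminin gene is not drawn, ordered within laminins, integrin alpha and integrin beta subunits. Filled points mark p under 0.05 before adjustment (Itga2b, Itga8 and Itgb3), and dotted lines mark a 2-fold change, which the intervals of Itga6, Itgb1, Itgb5, Lamb1 and Lamc1 do not reach.

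The smallest p-values belonged to Itgb3 and Itga8, and Itga2b followed. Itgb3 (NM_016780.2, chromosome 11, 104608000 to 104670473, plus strand) encodes beta 3, which pairs with alpha V or, on platelets and megakaryocytes, with alpha IIb. Its control pools held 15.8, 11.2 and 15.1 CPM and its PB pools 7.20, 9.28 and 10.99 CPM. All PB pools lay below all control pools, with control 2 and PB 3 close to each other. The log2 fold change was -0.62 (SE 0.192, edgeR FDR 0.888), or 0.652 times the control level.

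Itga2b (NM_010575.2, chromosome 11, 102453297 to 102469883, minus strand) encodes alpha IIb, the partner of beta 3 in the fibrinogen receptor of platelets. It had 5.34, 5.24 and 4.94 CPM in control and 3.63, 3.48 and 4.74 CPM in PB. PB 1 and PB 2 were low and PB 3 lay just under control 3. The log2 fold change was -0.39 (SE 0.145, edgeR FDR 0.888). An assembled transcript of 445 bases with 30 to 69 counts a pool carries the same name, and leaving it out gave a log2 fold change of -0.50. Per length, the gene sums overlapped (3.04 to 3.59 TPM in control and 3.05 to 4.08 TPM in PB). These sums include the 445-base transcript, which, being short, weighs more in TPM than in counts. That transcript had 0.311 to 0.438 CPM in control and 0.503 to 0.585 CPM in PB. NM_010575.2 alone was at 4.51 CPM or more in control and at 4.09 CPM or less in PB, without overlap. The overlap per length belongs to the gene sum with the 445-base transcript. The TPM of NM_010575.2 alone, which has 3437 bases, were not computed.

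Itga8 (NM_001001309.2, chromosome 2, 12106660 to 12301920, minus strand) encodes alpha 8, which binds nephronectin in mesenchyme. It had 62.0, 57.6 and 63.7 CPM in control and 52.7, 54.5 and 56.0 CPM in PB. The groups did not overlap, and the difference of 0.891 times the control level (log2 fold change -0.17, SE 0.0569, edgeR FDR 0.888) was the most precise of the 3. Leaving out 1 pool at a time gave unadjusted edgeR p-values of 0.00643 to 0.0513 for Itgb3, with the highest without control 1, of 0.00934 to 0.0741 for Itga8 and of 0.00404 to 0.0953 for Itga2b.

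Marker genes of the cells that carry these receptors are given beside them. The 4 markers of megakaryocytes and platelets summed to 9.01 to 9.82 CPM in control and 15.7 to 23.3 CPM in PB, none being at 0. Their values did not go the same way. Ppbp had 3.21, 1.52 and 1.36 CPM in control and 0.343, 0.538 and 1.03 CPM in PB (log2 fold change -1.66, edgeR FDR 0.888). Pf4 had 2.62, 3.13 and 2.61 CPM in control and 1.80, 2.02 and 2.93 CPM in PB (log2 fold change -0.30, edgeR FDR 0.888), and Gp9 had a log2 fold change of -0.58. Gp1bb had 2.43, 1.90 and 3.68 CPM in control and 12.1, 19.5 and 18.1 CPM in PB (log2 fold change 2.63, edgeR FDR 0.140). For Gp1bb the DESeq2 FDR was 3.95e-20, but with known transcripts only its log2 fold change was smaller, at 0.84 (edgeR FDR 0.936). The higher sum of the list in PB thus came with Gp1bb, and the other 3 markers had negative values, as Itgb3 and Itga2b did. The 7 endothelial markers summed to 361 to 395 CPM in control and 338 to 363 CPM in PB, with 6 of 7 changes negative and none of the markers at 0. The 7 macrophage markers summed to 62.8 to 69.3 CPM in control and 56.9 to 67.5 CPM in PB, with 5 of 7 negative. The 4 surface epithelium markers summed to 206 to 274.3 CPM in control and 274.4 to 349.7 CPM in PB, with positive values in 4 of 4. The 3 smooth muscle markers summed to 115.8 to 122.1 CPM in control and 127.8 to 154.4 CPM in PB, with positive values in 2 of 3. The 5 red cell markers summed to 14796 to 31398 CPM in control and 18039 to 19791 CPM in PB, with negative values in 5 of 5. None of these markers was at 0. The sums for megakaryocytes and platelets, surface epithelium and smooth muscle did not overlap between the groups, those for surface epithelium by a narrow margin (274.3 against 274.4 CPM). The part of these cells in the values of Itgb3, Itga2b and Itga8 was not tested.

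Non-overlapping pools were found for 5 members lower in PB, namely Itgb3, Itga2b, Itga8, Itgb1 and Itga2, where all genes gave 5.61%, and for 1 higher, Itga3, where all genes gave 5.1%. Itga2, the alpha 2 subunit of a collagen receptor, had 5.52, 5.23 and 4.90 CPM in control and 4.24, 4.78 and 4.72 CPM in PB. Its pools lay close together, and the log2 fold change was -0.19 (SE 0.105, edgeR FDR 0.888). With DESeq2's size factors 6 members were lower without overlap, where all genes gave 6.03%, and 0 higher, where all genes gave 4.81%, Itga9 joining and Itga3 leaving. On the TPM scale, which has no TMM scaling and on which the median log2 ratio of all genes was 0.11, 0 members were lower without overlap (1.31% of all genes) and 3 were higher, Itga3, Itga11 and Itgb4 (14.4% of all genes). The 5 members lower by CPM all overlapped in TPM, and the group means of Itgb1 (159 TPM in control, 164 TPM in PB) and Itga2b (3.26 and 3.49 TPM) were then higher in PB. For Itga2b these TPM include its short 445-base transcript, and the comparison without it was not computed. By TPM means 9 members were lower and 26 higher, against 22 and 13 in the edgeR fit. Of all 19435 genes, 4637 were lower and 14795 higher by TPM means, against 9586 and 9849 in the edgeR fit.

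**Figure D3:**
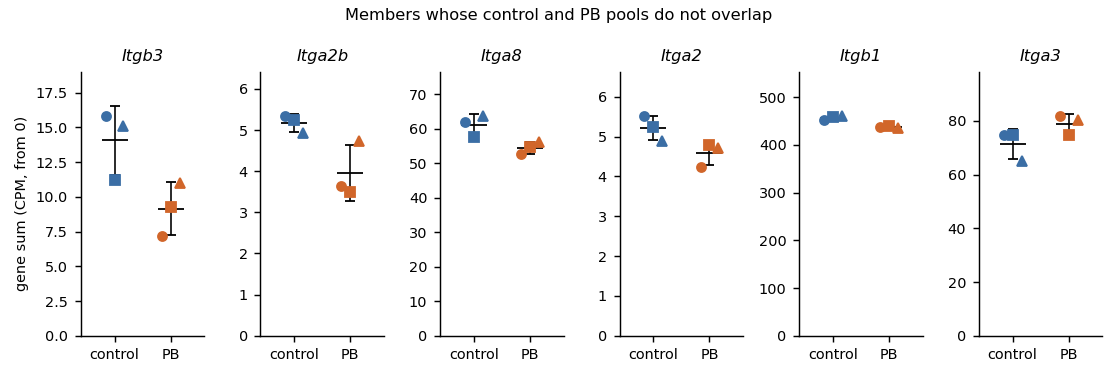
Gene sums (CPM, axes from 0) of the 6 members whose control (blue) and PB (orange) pools do not overlap. The marker shape gives the pool number and the bars the mean and SD of 3 pools, and relative to the control mean the difference is largest for Itgb3, although its nearest control and PB pools, 11.2 and 10.99 CPM, lie close.

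The other integrins that bind matrix had overlapping pools. Itga9 had 118, 119 and 120 CPM in control and 117, 118 and 109 CPM in PB (log2 fold change -0.05, SE 0.0464, edgeR FDR 0.888). Itga5 had 76.9, 69.6 and 74.6 CPM in control and 71.0, 74.1 and 71.3 CPM in PB (log2 fold change -0.03, SE 0.0541, edgeR FDR 0.924). Itgb5 had 196, 188 and 194 CPM in control and 186, 191 and 171 CPM in PB. PB 3 was its lowest pool (log2 fold change -0.08, SE 0.0532, edgeR FDR 0.888). PB 3 was also the lowest pool of Lamb1, Lamc1, Itga6 and Itga9.

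On the positive side, Itgb8, whose product pairs with alpha V to activate TGF-beta, had 6.02, 5.56 and 4.59 CPM in control and 6.68, 6.13 and 5.50 CPM in PB. The groups overlapped (log2 fold change 0.18, SE 0.137, edgeR FDR 0.888). Itgae, which with beta 7 binds E-cadherin on lymphocytes, had 0.438, 0.755 and 0.350 CPM in control and 1.08, 0.421 and 0.757 CPM in PB. Its highest control pool lay above PB 2 and next to PB 3 (log2 fold change 0.54, SE 0.439, edgeR FDR 0.888).

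A few members varied more within a group than between groups. Itgb6, the epithelial partner of alpha V, had the largest spread, with 0.0305, 0.163 and 0.701 CPM in control and 0.0706, 1.03 and 0.0946 CPM in PB. Control 3, its highest control pool, was the pool with the high Cdh16, whereas PB 2, the highest of all, had a Cdh16 of 3.88 CPM. The 3 mesonephric markers Pax2, Pax8 and Cdh16 summed to 29.97 CPM in control 3 and 19.73 CPM in PB 2. Their sums in the other pools were lower, at 13.25 to 15.43 CPM. The part of mesonephric tissue in the values of Itgb6 was not tested. The log2 fold change of Itgb6, 0.42, had an SE of 1.29 (edgeR FDR 0.961). Itga4, which with beta 1 binds fibronectin and VCAM-1, had 44.3, 78.8 and 46.8 CPM in control and 44.2, 69.5 and 29.0 CPM in PB. Control 2 and PB 2 were its high pools, and these were also the pools with the lowest germ cell marker sums. The part of cell composition in Itga4 was not tested, and the log2 fold change was -0.25 (SE 0.355, edgeR FDR 0.909). It was 0.06 without control 2, 0.0058 without PB 3 and -0.63 without PB 2.

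Itgam and Itgb2, the subunits of the leukocyte receptor Mac-1, both had negative values. Itgam, the alpha subunit of macrophages and neutrophils, had 2.15, 4.52 and 3.33 CPM in control and 2.11, 2.44 and 1.93 CPM in PB. Control 2 was high and control 1 lay among the PB pools (log2 fold change -0.63, SE 0.275, edgeR FDR 0.888). Itgb2, the shared beta subunit of leukocytes, had 2.12, 4.04 and 2.51 CPM in control and 2.30, 2.12 and 1.80 CPM in PB, with control 2 again the high pool (log2 fold change -0.48, SE 0.263, edgeR FDR 0.888). Without control 2 the log2 fold change was -0.35 for Itgam and -0.16 for Itgb2. The remaining tested members, not named with values per pool, all had overlapping groups in CPM.

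Single transcripts were measured less precisely than gene sums, with a biological coefficient of variation of 98.4% against 20.9%. Of the 56 member transcripts that passed the filter, edgeR called 0, where 0.0332% of all tested transcripts were called. On simulated data edgeR recovered 0 of 200 transcripts changed 4-fold, so this 0 says little about change. One transcript had an unadjusted p under 0.05 and was lower in PB, against 1.71% of all transcripts in that direction. This was NM_016780.2 of Itgb3, with 1551, 1307 and 1422 counts in control and 713, 948 and 1278 counts in PB (log2 fold change -0.61, SE 0.237, edgeR FDR 1.00). DESeq2 called 0 of 86 member transcripts, where it called 1.61% of all transcripts. It gave 7 with an unadjusted p under 0.05, where all transcripts gave 7.17%, and its smallest FDR was 0.103, for Itgb1. No member transcript was at or under 3 counts in each pool of one group with at least 100 counts in each pool of the other.

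Of the 119 member transcripts, 110 matched the intron chain of a RefSeq transcript. Of the other 9, 3 lay on the opposite strand or within an intron and 2 were single exons downstream of a member, and their counts entered the gene sums. The downstream transcripts held 30.9% of the counts of Itga1, a collagen receptor subunit, and 11.04% of those of Lamc3, the gamma 3 chain.

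The division of a gene among its transcripts varied between pools of the same group. Of the 28 members with at least 2 counted transcripts, 6 had a different leading transcript in different pools. In all 6 the change occurred within a group, and in 0 did the groups each have their own leading transcript.

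Itga6 was divided evenly. The transcripts with the 130-base exon held 47.2%, 51.8% and 50.6% of its RefSeq transcript counts in control and 51.0%, 50.9% and 51.0% in PB. The means were 49.9 ± 2.41% in control and 50.9 ± 0.0633% in PB (SD, n = 3 pools each), which did not differ beyond the spread (exact permutation test, two-sided p = 0.7, smallest possible 0.1). The leading transcript was NM_001277970.1 in control 1 and NM_008397.4 in the other 5 pools.

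Itga7 was rarer and was divided unevenly. Transcripts with the 132-base exon had 193, 36 and 44 counts in control and 174, 97 and 289 counts in PB, and the transcript with the 120-base exon, NM_008398.2, had 0, 323 and 105 counts in control and 36, 352 and 0 counts in PB. The share with the 132-base exon was thus 100%, 10.03% and 29.5% in control and 82.9%, 21.6% and 100% in PB. Each group held pools near both extremes (exact permutation test, two-sided p = 0.8). In sum Itga7 had 1.96, 3.08 and 1.58 CPM in control and 2.12, 4.39 and 2.49 CPM in PB (log2 fold change 0.44, SE 0.357, edgeR FDR 0.888).

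The transcripts of Lama2 and of Lamb2 differ by few bases, and pools differed in which of them was counted. The transcript of Lama2 with the 12-base exon, XM_011243134.1, had 2268, 2686 and 0 counts in control and 2398, 2825 and 2748 counts in PB, and the one without it, XM_017313815.1, had 2693 counts in control 3 and 0 in the other 5 pools. Control 3 thus stood apart, and its gene sum was the highest of the 6, with 23.1, 23.0 and 28.6 CPM in control and 24.2, 27.8 and 23.6 CPM in PB (log2 fold change 0.02, SE 0.111, edgeR FDR 0.984). The transcripts of Lamb2 have 5624 and 5623 bases and share 31 of 33 exons. Their first exons are 113 bases each and are shifted by 5 bases, and their last exons are 247 and 246 bases. The share of NM_008483.3 was 18.4%, 86.4% and 19.9% in control against 18.2%, 28.5% and 13.6% in PB. Control 2 stood apart from the other 5 pools, although its Lamb2 gene sum, 148 CPM, lay next to that of control 3, 151 CPM.

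Itgav, the alpha V subunit, which binds vitronectin and fibronectin, was divided between NM_008402.3 and XM_006498807.3. NM_008402.3 held 36.7%, 25.9% and 24.8% of their counts in control and 2.56%, 30.4% and 27.5% in PB. PB 1 was the low pool, where 344 counts were on an assembled transcript that had 0 counts in the others.

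**Figure D4:**
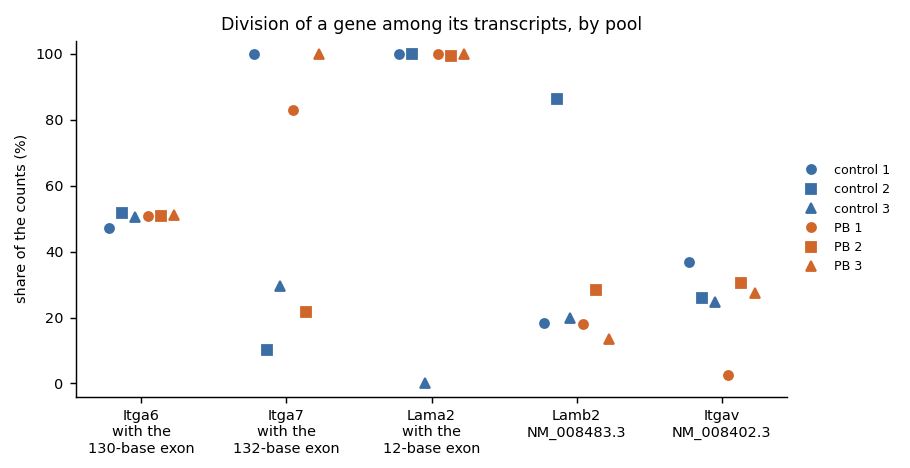
Share (%) of a gene's counts in the transcripts with the exon or the transcript named under each column, with 1 point a pool (control blue, PB orange). Itga6 lies near 50% in all 6 pools, while Itga7, Lama2, Lamb2 and Itgav each hold pools of the same group far apart.

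Genes that act with the laminins and integrins were read from 3 lists. Of 13 basement membrane partners, 11 had a negative and 2 a positive change, 0 were called by either tool and 0 had p under 0.05 in edgeR or DESeq2, with a median log2 fold change of -0.07. Agrin (Agrn), a heparan sulphate proteoglycan that binds laminin, had 236, 219 and 248 CPM in control and 216, 228 and 209 CPM in PB, with overlapping groups (log2 fold change -0.10, edgeR FDR 0.888). Col4a3, a type IV collagen chain, had 1.06, 1.06 and 0.850 CPM in control and 1.13, 1.19 and 1.299 CPM in PB (log2 fold change 0.28, edgeR FDR 0.888). It was the 1 partner of this list that was higher in PB without overlap, where all genes gave 5.1%. Lower without overlap were 0, where all genes gave 5.61%. The log2 fold changes of Ntn4, a laminin-related netrin, and Bcam, a laminin receptor of another family, were -0.15 and 0.02.

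Of 19 other integrin ligands, 14 had a negative and 5 a positive change, with a median of -0.13. None was called by edgeR or DESeq2, and 2 had p under 0.05 in edgeR and 4 in DESeq2. Emilin1, an elastic fibre protein and ligand of alpha 4 and alpha 9, had 255, 247 and 267 CPM in control and 229, 236 and 226 CPM in PB. All PB pools were below all control pools (log2 fold change -0.16, SE 0.0442, edgeR FDR 0.888). Tenascin C (Tnc), a ligand of alpha 8 and alpha 9, had 40.9, 61.6 and 50.7 CPM in control and 69.8, 58.2 and 79.3 CPM in PB. Control 2 lay above PB 2 (log2 fold change 0.44, SE 0.172, edgeR FDR 0.888). Icam2, an endothelial ligand of leukocyte integrins, had a log2 fold change of -0.23, without overlap, and Cyr61 (Ccn1) one of 0.08. Among the 19 ligands, 3 were lower in PB without overlap (Emilin1, Icam1 and Icam2), where all genes gave 5.61%. Higher without overlap were 0, where all genes gave 5.1%.

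Of 20 adaptors that link integrins to actin, 15 had a positive and 5 a negative change, or 13 and 7 with DESeq2's size factors, and the median was 0.02. None was called by edgeR or DESeq2, and 1 had p under 0.05 in edgeR and 0 in DESeq2. Itgb1bp1, which binds the tail of beta 1, had 19.95, 19.97 and 21.2 CPM in control and 22.7, 21.9 and 22.6 CPM in PB, without overlap (log2 fold change 0.14, SE 0.0563, edgeR FDR 0.888). Lims2, of the complex of integrin-linked kinase, had 0.814, 0.592 and 0.754 CPM in control and 1.09, 1.04 and 0.903 CPM in PB (log2 fold change 0.49, edgeR FDR 0.888). In all, the PB pools lay above the control pools in 7 adaptors under either scaling, against 5.1% of all genes, and these were Itgb1bp1, Lims2, Parva, Pxn, Src, Vcl and Zyx. Their log2 fold changes ran from 0.05 to 0.49. The kindlin of blood cells, Fermt3, had 23.3, 36.8 and 22.4 CPM in control and 19.9, 25.7 and 14.2 CPM in PB. It was high in the pools numbered 2, as Itga4 was (log2 fold change -0.46, SE 0.270, edgeR FDR 0.888). Parvg, the parvin of blood cells, had a log2 fold change of -0.34.

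**Figure D5:**
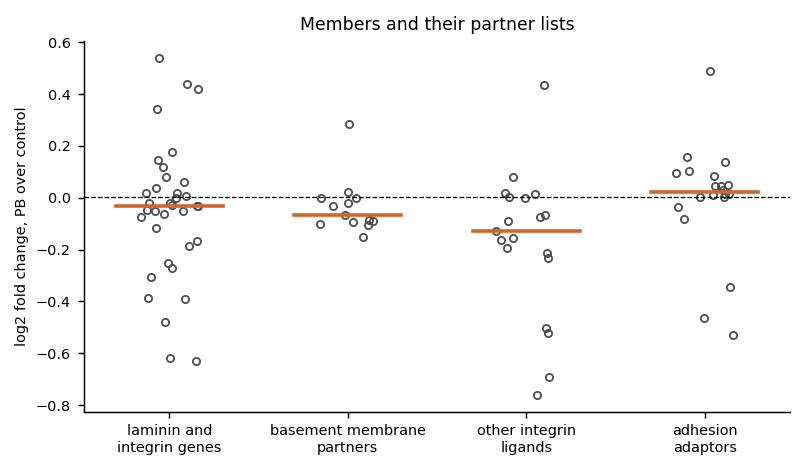
Log2 fold change of PB over control (edgeR) for each tested member and for the genes of the 3 partner lists, with the median of each list (orange line) and of all genes (dashed line). The medians are -0.03, -0.07, -0.13 and 0.02 from left to right.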

How the data were processed

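Stranded poly(A) RNA-seq of 3 control and 3 PB pools was grouped by the treatment label, since the design text describes all libraries as being from exposed mice. The authors aligned reads to mm10 with HISAT2 2.1.0, built a merged transcriptome on RefSeq with StringTie 1.3.5, and deposited raw counts per transcript, which prepDE derives from coverage. Their comparison columns (log2 fold changes, standard errors, p-values) and 6 columns of normalized values per pool were not used. Transcript counts depend on how StringTie splits the reads of overlapping transcripts.

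Counts were summed by gene name, scaled by TMM, filtered by filterByExpr (minimum count 10, minimum total 15) and tested with edgeR 4.0.16 (R 4.3.3, limma 3.58.1) and, as an alternative, DESeq2 1.42.0. Other alternatives were DESeq2's size factors, other filters, thresholds and groupings, the replicate number as a block, and each pool left out. TPM were computed from counts and exon lengths without TMM and serve to compare genes; the overlap of pools in TPM was added after seeing the data. On simulated data, edgeR recovered 171 of 200 genes changed 4-fold among 19435 with 8 false calls, and 0 of 200 transcripts.

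The members and lists were chosen with earlier results of these data known. Members are named by smallest p in each direction, separated pools, highest level and largest spread, and the partners by smallest p. The other genes and transcripts given values (among them Itgam, Itgb2, Itga4, Itga7, Lama2 and Itgav) and the 7 adaptors were chosen after their values were seen. Nothing ties a pool number to a litter, and p-values measure the spread between pools. Sequences come from GENCODE transcripts whose exons there match the deposited ones. Values of 1 laminin gene are not reported here.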

Additional observations from a re-analysis of the deposited data

How the results depend on the processing

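The count of 0 called members, in gene sums and in transcripts, was the same under every alternative run. So was that of 0 called genes in each partner list. For transcripts in edgeR the 0 says little, since 0 of 200 simulated transcripts changed 4-fold were recovered. The smallest FDR of a member gene under the other settings was 0.289, for Lamb2 without PB 2. The count over all genes, 3, became 11 with DESeq2, 0 with the replicate block, 8 with known transcripts alone and 5 with no fold threshold, and ran from 3 to 9 with 1 pool left out. That over all transcripts, 17, became 1172 with DESeq2, 39 with the stricter filter, 0 with the replicate block and 51 at an FDR of 0.1, and ran from 0 to 19 with 1 pool left out. The cause was not tested. The replicate numbers were not shown to pair the pools. The deviations of pools with the same number correlated by 0.0923, 0.239 and 0.0596. Control 2 and control 3 correlated best with the PB pool of their own number, and control 1 with PB 3 (0.155). Correlations between pools of unlike number ran from -0.238 to 0.155. With the replicate block 4 members had p under 0.05, against 3 without it. Of 191 alternatives for the 16 named members, 186 kept direction and 5 reversed: Itga6 without PB 3, Itgb6 without control 1 (-0.12) or PB 2, and Lamc1 without control 3 (0.0046) or PB 3. With 1 pool left out, the log2 fold change of Itga6 ran from -0.083 to 0.033, of Itgb6 from -1.82 to 1.98 and of Lamc1 from -0.062 to 0.018.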
